A study of Mus musculus with 574 samples.

Results

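The genes described here are 7 transcription factors that pattern the neural tube, namely Nkx2-1, Nkx2-2, Nkx2-9, Nkx6-1, Nkx6-2, Pax3 and Pax6. They were chosen by name, and all 7 have a line in both deposited tables, out of 23706 genes in the table of pools and 25489 in the table of single cells. Their levels are given by embryonic stage, by GFP class of the pools, and cell by cell together with the homeobox genes Lmx1a and Barhl1.

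In the embryonic neural tube, sonic hedgehog from the floor plate and notochord grades the ventral side, and homeodomain and paired-box factors read that grade. Nkx2 and Nkx6 genes are induced ventrally, Pax3 is kept to the dorsal side, and Pax6 lies at intermediate levels. Pairs of these factors repress each other, which sharpens the borders between progenitor domains. In the ventral midbrain, Lmx1a marks the floor plate that makes dopamine neurons. Barhl1 marks the neighbouring caudal hypothalamic domain from which subthalamic neurons come, and Nkx2-1 is best known as a factor of the hypothalamus and the ventral telencephalon.

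Every library used here was of developing ventral midbrain and was heterozygous for an Lmx1a-EGFP reporter on the C57BL/6 background, so controls and compared groups share that allele. RNA was amplified with Smart-seq2, which reads along whole transcripts. The 550 single cells were 24.9% of stage E10.5 (E stands for embryonic day), 16.4% E11.5, 32.4% E12.5 and 26.4% E13.5. Another 24 libraries each held 100 pooled cells, with 6 GFP positive and 6 GFP negative pools for E10.5 and the same for E13.5. The GFP class is that of the reporter, so it separates cells by Lmx1a-EGFP and by no other gene. The labels give no GFP class for single cells and no embryo, litter or sort gate for any library. A p-value between groups of pools therefore rests on the spread among those pools alone, which may be technical. The cells of a stage were treated as 1 sample, without a test.

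Values are RPKM, reads per kilobase of transcript, scaled to library depth. The depth estimated from the steps between low values was between 1.30 and 3.67 M reads in pools (median 2.76 M) and between 0.401 and 7.46 M in cells (median 1.36 M). An RPKM of 10 in a transcript of 2 kb is about 55.2 reads in the median pool and 27.2 in the median cell. Lmx1a was 46.3 to 85.5 RPKM in GFP positive pools and 0.116 to 3.88 in GFP negative pools. Barhl1, which was not used in the sort, was also higher in GFP positive pools, by 2.22 ± 0.37 on the log2(RPKM + 1) scale at E10.5 (SE; limma adjusted p = 9.24e-05) and by 3.56 ± 0.37 at E13.5 (limma adjusted p = 1.66e-07).

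The members lie at 6 places in the mouse genome (GRCm38, which is mm10). Nkx2-1 (chromosome 12, 56531958 to 56536908) and Nkx2-9 (chromosome 12, 56611389 to 56613284) are neighbours on the minus strand, 74.5 kb apart. Nkx2-2 (chromosome 2, 147177546 to 147194243, minus strand) lies 92.1 kb from Nkx2-4, its closest Nkx2 neighbour. Nkx6-1 is on chromosome 5 (101658139 to 101664996, minus strand) and Nkx6-2 on chromosome 7 (139579376 to 139582797, minus strand). Pax3 is on chromosome 1 (78101267 to 78197134, minus strand) and Pax6 on chromosome 2 (105668900 to 105697364, plus strand). The antisense genes Pax6os1 and Nkx2-2os overlap Pax6 over 1431 bases and Nkx2-2 over 10161 bases. The library kit does not mark strand, so reads of those 2 members and of their antisense partners cannot be told apart where they overlap.

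Of the 7 members, 6 had an entry in the RefSeq promoter table (GRCm38.p6; 250 bases before to 50 after the start), with 7 windows in all because Pax6 has 2 starts. The motifs were searched on both strands. The letters CCACCCA, the core of the site bound by the Gli factors of hedgehog signalling, stood in 9.30% of all 32851 windows and among the members in Nkx2-9 alone. TAAT, the core of homeodomain sites, stood in 58.03% of all windows and in 5 of 7 member windows, and CACTT, the core of NK2 sites, in 46.4% and in 4 of 7. Printed here are the window of Nkx2-9, for its CCACCCA match, and those of Nkx6-1 and Nkx6-2, paralogs found together in 12 cells (given further on). Capitals mark CCACCCA and TAAT on either strand. The windows are chr12:56613235-56613534, chr5:101664662-101664961 and chr7:139582748-139583047, all on the minus strand and written 5′ to 3′.
Nkx2-9: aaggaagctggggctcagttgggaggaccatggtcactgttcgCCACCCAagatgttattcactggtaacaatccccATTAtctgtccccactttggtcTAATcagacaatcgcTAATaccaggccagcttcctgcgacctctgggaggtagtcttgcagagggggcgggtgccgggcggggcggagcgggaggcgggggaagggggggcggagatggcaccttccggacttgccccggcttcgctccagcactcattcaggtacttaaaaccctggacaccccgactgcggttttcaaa
Nkx6-1: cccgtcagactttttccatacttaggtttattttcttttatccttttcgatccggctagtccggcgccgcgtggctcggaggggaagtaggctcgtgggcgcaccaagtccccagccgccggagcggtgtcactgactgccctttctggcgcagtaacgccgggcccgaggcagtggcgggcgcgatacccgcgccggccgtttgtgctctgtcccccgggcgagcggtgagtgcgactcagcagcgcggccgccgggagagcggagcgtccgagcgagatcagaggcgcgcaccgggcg
Nkx6-2: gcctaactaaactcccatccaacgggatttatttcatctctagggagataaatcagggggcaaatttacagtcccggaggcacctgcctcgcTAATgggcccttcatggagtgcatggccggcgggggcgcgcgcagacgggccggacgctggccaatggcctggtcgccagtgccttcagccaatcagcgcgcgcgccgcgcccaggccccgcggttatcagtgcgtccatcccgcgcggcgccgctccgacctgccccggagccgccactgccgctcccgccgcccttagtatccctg
The Nkx2-9 window held 3 TAAT matches, that of Nkx6-2 held 1 and that of Nkx6-1 held 0. The windows of Nkx6-1 and Nkx6-2 were the richest in G and C among the members, at 67.3% and 66.7% against a median of 52.7% over all windows. A match is a run of letters and not a bound site.

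In pools, 5 of the 6 factors that could be tested were lower in Lmx1a-EGFP positive cells at E13.5 or at both stages, and 0 were called higher. In the E10.5 contrast the 4 called members were Nkx2-2, Nkx6-1, Nkx6-2 and Pax6, all lower in GFP positive pools. At E13.5 they were joined by Nkx2-1. Of the 7 members, 6 passed the filter on low values (an RPKM of 1 or more in 6 or more pools) and Pax3 did not. Over all 15871 genes tested, 13.1% were called in either direction at E10.5 (8.64% lower, 4.51% higher) and 7.15% at E13.5 (3.74% lower, 3.42% higher), by limma at an adjusted p under 0.05. In a bulk pool, fewer cells of a type and less RNA per cell cannot be told apart.

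**Figure D1:**
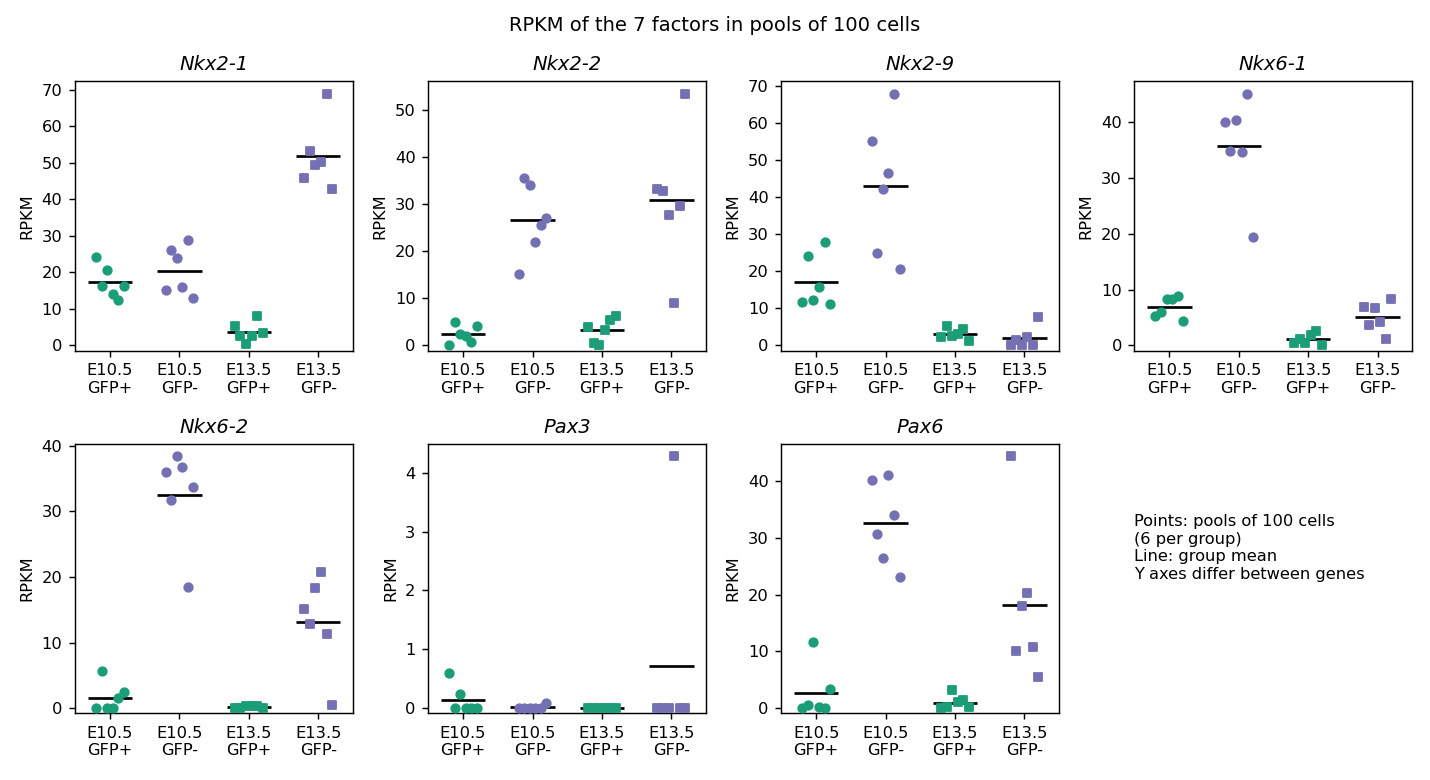
RPKM of each factor (y axis, linear, own scale per gene) in 24 pools of 100 cells, by stage and GFP class (x axis; 6 points per group, line at the mean). GFP negative pools stood above all GFP positive pools for Nkx2-2, Nkx6-2 and Pax6 at both stages, and for Nkx2-1 at E13.5 but not at E10.5.

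Nkx2-1 showed different GFP contrasts at the 2 stages. At E10.5 it ranged from 12.49 to 24.3 RPKM in GFP positive pools (median 16.4) and from 12.9 to 28.8 in GFP negative pools (median 19.9). These groups overlapped almost completely, and the log2 difference of -0.20 ± 0.30 did not pass the test (SE; limma adjusted p = 0.736). At E13.5 it ranged from 0.458 to 8.17 RPKM (median 3.04) in GFP positive pools and from 42.9 to 68.95 (median 49.8) in GFP negative pools, with no overlap. The log2 difference at E13.5 was -3.66 ± 0.30 (limma adjusted p = 2.55e-09).

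Nkx2-1 changed with stage in both GFP classes, in opposite directions. From E10.5 to E13.5 it fell by 2.11 on the log2 scale in GFP positive pools (SE 0.30; limma adjusted p = 1.24e-06) and rose by 1.34 ± 0.30 in GFP negative pools (limma adjusted p = 0.000562), with no overlap between stages in either class. The test of the difference between the 2 GFP contrasts gave -3.45 ± 0.42 (limma adjusted p = 4.86e-06), a term in which 5.83% of all genes were called (1.90% lower, 3.93% higher). Ordered by mean, the levels ran from 51.8 ± 9.16 RPKM (SD, n = 6) in E13.5 GFP negative pools, through 20.5 ± 6.59 and 17.3 ± 4.37 in E10.5 GFP negative and positive pools, to 3.79 ± 2.66 in E13.5 GFP positive pools. Only the middle pair did not differ beyond their spread.

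Nkx2-2, which specifies the most ventral neurons beside the floor plate, was low in GFP positive pools at both stages. It ranged from 0 to 4.96 RPKM (median 2.24) in E10.5 GFP positive pools and from 15.2 to 35.6 (median 26.3) in E10.5 GFP negative pools. At E13.5 the values were 0 to 6.19 (median 3.62) and 9.01 to 53.6 (median 31.2). The GFP classes did not overlap at either stage, and 2 GFP positive pools, 1 per stage, were listed at 0. The log2 differences were -3.21 ± 0.47 at E10.5 (SE; limma adjusted p = 1.73e-05), then -3.08 ± 0.47 at E13.5 (limma adjusted p = 6.45e-05). Within a GFP class the stage differences of 0.23 and 0.11 did not pass the test (limma adjusted p = 0.712 and 0.875), so the order of its levels separates the GFP classes and not the stages.

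Nkx2-4, the neighbour of Nkx2-2, had another pattern. Its log2 difference between GFP positive and negative pools was 1.74 ± 0.33 at E10.5 (SE; limma adjusted p = 0.000451) and -1.52 ± 0.33 at E13.5 (limma adjusted p = 0.00361), and the difference between those contrasts was -3.25 ± 0.47 (limma adjusted p = 4.53e-05). Nkx2-2 was lower in GFP positive pools at both stages, whereas Nkx2-4 changed sides, and its stage by GFP term had the sign of that of Nkx2-1.

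Nkx2-9, an early hedgehog-dependent gene of the ventral midline, was set apart by stage. In E10.5 pools it ranged from 11.3 to 27.9 RPKM in GFP positive cells (median 14.1) and from 20.7 to 67.98 in GFP negative cells (median 44.3). In E13.5 pools it ranged from 1.23 to 5.22 (median 2.73) in GFP positive cells. E13.5 GFP negative pools had 0 in 3 of 6 and at most 7.64 RPKM (median 0.799). Every E13.5 pool lay below every E10.5 pool of its GFP class.

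The stage difference of Nkx2-9 was -2.13 ± 0.43 in GFP positive pools (SE; limma adjusted p = 0.000182) and -4.30 ± 0.43 in GFP negative pools (limma adjusted p = 8.36e-09). Its GFP contrast did not pass the test at E10.5 (-1.24 ± 0.43; limma adjusted p = 0.0594) or at E13.5 (0.93 ± 0.43; limma adjusted p = 0.227). The difference between those contrasts was 2.17 ± 0.62 (limma adjusted p = 0.0325), and this call was lost in 11 of 24 fits that each left out 1 pool, where the adjusted p reached 0.0619. It was also lost with a pseudocount of 0.1 and without the filter on low values. The E10.5 contrast passed without GFP negative replicate 6 of E10.5, GFP positive replicate 5 of E10.5 or GFP negative replicate 6 of E13.5, with the lowest adjusted p of 0.0192. That last pool held the value of 7.64 RPKM, and without it the E13.5 contrast also passed, at 1.34 (adjusted p = 0.0269).

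Nkx6-1 and Nkx6-2, paralogs that act in ventral progenitors and in motor and other basal plate neurons, were both higher in GFP negative pools. Nkx6-1 ranged at E10.5 from 4.41 to 8.88 RPKM (median 7.10) in GFP positive pools and from 19.5 to 45.2 (median 37.5) in GFP negative pools, with no overlap. At E13.5 its ranges of 0.113 to 2.54 (median 0.817) and 1.07 to 8.32 (median 5.48) overlapped, with 3 of 6 GFP positive pools below all GFP negative pools. The log2 differences were -2.22 ± 0.33 (SE; limma adjusted p = 2.06e-05) and -1.52 ± 0.33 (limma adjusted p = 0.00361). Nkx6-1 fell with stage in both classes, by 1.99 in GFP positive (limma adjusted p = 1.37e-05) and fell by 2.69 in GFP negative pools (limma adjusted p = 2.06e-07). At E13.5 the call was lost with a pseudocount of 10 (adjusted p = 0.0502).

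Nkx6-2 was near 0 in GFP positive pools. It ranged from 0 to 5.68 RPKM (median 0.738, 3 pools at 0) at E10.5 and from 0 to 0.263 (median 0.125, 3 pools at 0) at E13.5. In GFP negative pools it ranged from 18.4 to 38.4 (median 34.9) at E10.5 and from 0.520 to 20.7 (median 13.99) at E13.5. The classes did not overlap at either stage. The log2 differences were -4.06 ± 0.51 at E10.5 (SE; limma adjusted p = 1.55e-06) and -3.29 ± 0.51 at E13.5 (limma adjusted p = 6.98e-05). The stage difference was called in GFP negative pools (-1.57 ± 0.51; limma adjusted p = 0.0124), though not with a pseudocount of 0.1 (adjusted p = 0.119). In GFP positive pools it was -0.81 ± 0.51 (limma adjusted p = 0.191).

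Pax6, a factor of intermediate neural tube progenitors and of forebrain neurons, ranged from 0 to 11.6 RPKM (median 0.298) in E10.5 GFP positive pools and from 23.1 to 41.01 (median 32.4) in E10.5 GFP negative pools. At E13.5 its ranges were 0.0609 to 3.12 (median 0.647) and 5.39 to 44.3 (median 14.4). The GFP classes did not overlap at either stage. The log2 differences were -3.95 ± 0.52 (SE; limma adjusted p = 3.94e-06) and -3.18 ± 0.52 (limma adjusted p = 0.000182). The stage difference in GFP negative pools, -1.06 ± 0.52, did not pass the test (limma adjusted p = 0.1002), although 5 of 6 E13.5 pools lay below all E10.5 pools. It passed without GFP negative replicate 1 of E13.5, which held the value of 44.3 RPKM, and without GFP positive replicate 3 of E10.5, which held the value of 11.6 (lowest adjusted p over these fits 0.0363).

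Pax3, the dorsal member, was above 0 in 4 of 24 pools. These were 2 E10.5 GFP positive pools at 0.601 and 0.234 RPKM, an E10.5 GFP negative pool at 0.0899 and an E13.5 GFP negative pool at 4.28. The other 20 pools were listed at 0, and no contrast of Pax3 was tested.

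Over the 5 contrasts, called members numbered 4 (E10.5) and 5 (E13.5) of 6 between GFP classes, 3 and 4 of 6 between stages in GFP positive and GFP negative pools, and 2 of 6 for the difference between contrasts. Between stages, 51.7% of all genes were called in GFP positive pools (29.6% lower, 22.1% higher) and 46.6% in GFP negative ones (26.9% lower, 19.7% higher), so that 3 and 4 of 6 are not far from the share of all genes. Stages did not overlap for 3 of 6 members in each GFP class, against 29.9% and 25.6% of all genes. Groups did not overlap for 4 of 6 tested members at E10.5 and for 4 of 6 at E13.5, against 7.59% and 4.0% of all genes tested. The median log2 difference of the 6 members was -2.71 at E10.5 and -3.13 at E13.5, beside -0.01 and -0.03 over all genes tested. The 2 GFP contrasts and the 2 stage contrasts are built from the same 4 groups of pools and are not independent.

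Markers of other cells moved with GFP class. The values are for E10.5 first. The summed RPKM of 7 neuron markers was 318 to 522 in GFP positive and 1356 to 2368 in GFP negative pools. That of 8 mesenchyme markers was 7.88 to 13.95 and 92.3 to 260, and that of 4 motor neuron markers was 0 to 1.01 and 16.3 to 61.2. Red blood cell markers reached 54526 in GFP negative pools (lowest 33.9) against 61.04 in GFP positive pools, and microglia markers reached 244 against 0.193. At E13.5, neuron markers were alike in range (4354 to 4866 and 4311 to 4954), whereas 3 GABAergic markers were 1.71 to 14.4 in GFP positive and 110 to 189 in GFP negative pools. Motor neuron markers were 0 to 6.65 and 11.2 to 43.5, and serotonergic markers were 0 to 2.85 and 12.7 to 126.6. Dopamine neuron markers lay the other way, at 662 to 1116 in GFP positive and 33.4 to 106.5 in GFP negative pools. Red blood cell markers reached 16818 (median 65.3) and microglia markers 220.2 (median 0.184) in E13.5 GFP negative pools, against at most 27.9 and 0.444 in GFP positive ones. When pools were rescaled to equal sums without the red blood cell genes, an alternative chosen after seeing the data, the 4 and 5 members called between GFP classes were the same ones. The part of the other markers in these contrasts was not tested.

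Other genes of the patterning network were counted in 6 lists. Of 10 genes of the ventral midline, all tested, GFP positive pools had 9 higher and 0 lower at E10.5, then 8 higher and 1 lower at E13.5. Their largest differences were those of Lmx1a at E10.5 (4.95 ± 0.27; limma adjusted p = 6.96e-13) and of the homeobox gene Msx1 at E13.5 (4.31 ± 0.38; limma adjusted p = 1.17e-08). The sort used the reporter of Lmx1a, so the difference of Lmx1a itself was set by the sort. The counts and medians of the midline list include Lmx1a. Of 20 genes of the basal plate and its neurons, 14 were lower and 1 higher at E10.5 and 12 lower and 3 higher at E13.5, led by the motor neuron factor Isl1 (-4.77 ± 0.46; limma adjusted p = 2.24e-08) and by Gata3 (-4.78 ± 0.38; limma adjusted p = 1.30e-09), a factor of GABAergic neurons. The basal plate list and 4 of the members thus lay on the GFP negative side at both stages, opposite to the midline list. Medians of the log2 difference were -2.08 and -2.36 for the basal plate list and 2.61 and 2.79 for the midline list.

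The remaining lists split. Of 7 tested genes of hedgehog response, 3 were lower in GFP positive pools at E10.5, led by the effector Gli2 (-2.84 ± 0.63; limma adjusted p = 0.00219), and 0 were called at E13.5. Of 7 tested alar and roof plate genes out of 12, 4 were higher and 2 lower at E10.5, led by the ligand gene Wnt1 (5.41 ± 0.39; limma adjusted p = 1.26e-10), and 3 higher and 1 lower at E13.5, led by Bmp7 (2.46 ± 0.26; limma adjusted p = 3.16e-07). Of 16 tested genes of diencephalon, hypothalamus and forebrain, 4 were higher and 7 lower at E10.5 and 4 higher and 8 lower at E13.5. The forebrain gene Dlx1 had the largest difference of that list at both stages (-4.52 and -5.002 ± 0.48; limma adjusted p = 1.11e-07 and 4.46e-08). Of 16 other Nkx and Pax genes only 4 passed the filter on low values, with 1 higher and 2 lower at E10.5 and 4 lower at E13.5, led by Pax5 both times (-1.91 and -3.80 ± 0.64; limma adjusted p = 0.0464 and 0.00023).

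With stage, every called gene of the midline and hedgehog response lists was lower. Shh had the largest change of the midline list in both classes, falling by 2.99 in GFP positive and by 3.71 in GFP negative pools (SE 0.29 each; limma adjusted p = 2.82e-09 and 1.15e-10). Of 7 hedgehog response genes, 2 were lower at E13.5 in GFP positive pools, led by the receptor component Smo (-2.52 ± 0.23; limma adjusted p = 6.33e-10), and 6 were lower in GFP negative pools, led by Gli2 (-2.87 ± 0.63; limma adjusted p = 0.000495). The midline list had 7 of 10 lower in GFP positive and 6 of 10 lower in GFP negative pools, with 0 higher in either. Nkx2-9 and Nkx6-1 were the members lower with stage in both classes. The summed RPKM of 8 progenitor markers was also lower at E13.5. Its median was 1579 against 3365 in GFP positive pools and 777 against 3303 in GFP negative pools. Within that list Fabp7 went the other way in GFP positive pools, from a mean of 225 RPKM at E10.5 to 626 at E13.5. Every other marker of the list had a lower mean at E13.5 in both classes, as had Fabp7 in GFP negative pools. The part of these markers in the stage differences was not tested.

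Other lists moved less evenly with stage. The basal plate list had 1 higher and 5 lower of 20 in GFP positive pools, led by Neurog1 (-2.66 ± 0.36; limma adjusted p = 8.13e-07), and 4 higher and 9 lower in GFP negative pools, led by Gata3 (3.25 ± 0.38; limma adjusted p = 7.94e-08). The alar and roof plate list had 5 of 7 lower in GFP positive pools, led by Wnt1 (-3.27 ± 0.39; limma adjusted p = 7.68e-08), and 4 of 7 lower in GFP negative pools, led by Bmp7 (-2.79 ± 0.26; limma adjusted p = 2.82e-09). The diencephalon, hypothalamus and forebrain list had 2 higher and 6 lower of 16 in GFP positive pools. It had 7 higher and 2 lower in GFP negative pools, led by Lhx9 (3.34 ± 0.38; limma adjusted p = 4.94e-08). Nkx2-4 fell by 2.09 in GFP positive pools (SE 0.33; limma adjusted p = 6.67e-06), where 2 of 4 other Nkx and Pax genes were lower. In GFP negative pools 2 of 4 were higher, led by Pax5 (1.88 ± 0.64; limma adjusted p = 0.0172).

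The difference between the GFP contrasts at E13.5 and E10.5 was called for 2 of the 6 members and for 1 of 4 other Nkx and Pax genes, which was Nkx2-4. In the other lists it was called for 2 midline genes (both lower, led by Ferd3l at -1.93 ± 0.48; limma adjusted p = 0.0142), and for 1 hedgehog response gene, Gli1 (1.75 ± 0.43; limma adjusted p = 0.0119). Of the basal plate list 3 were higher and 4 lower. Of the alar and roof plate list 2 were lower, led by Wnt1 (-3.32 ± 0.55; limma adjusted p = 0.000263). Of the diencephalon, hypothalamus and forebrain list 2 were higher and 4 lower, led by Foxb1 (-3.24 ± 0.48; limma adjusted p = 6.45e-05), a gene of the caudal hypothalamus. Nkx2-1, Nkx2-4 and Foxb1 therefore each had a lower GFP contrast at E13.5 than at E10.5.

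In single cells a factor counted as present from an RPKM of 10 upward. Cells with the factor were few, from 94 of 550 for Nkx2-1 (17.1%) to 9 for Pax3 (1.64%), with 59 for Nkx6-1, 46 for Nkx2-2, 30 for Pax6, 27 for Nkx2-9 and 19 for Nkx6-2. No member had a value between 8.14 and 11.3 RPKM. The lowest values taken as present were between 11.3 RPKM (Nkx6-1) and 26.4 (Nkx6-2), and the highest values left out were between 0.984 (Pax3) and 8.14 (Nkx2-2). At an RPKM of at least 1, Pax6 was in 59 cells, Nkx2-2 in 61 and Nkx6-2 in 30. Nkx6-1 was in 68, Nkx2-9 in 31 and Pax3 in 9, closer to their counts at 10. Lmx1a had no gap at the threshold, with 9.83 left out and 10.02 kept. It was in 334 cells at 1 and in 299 at 10. In proportion, counts of cells thus depend on the threshold most for Pax6, Nkx2-2 and Nkx6-2, and less for Lmx1a, Nkx6-1 and Nkx2-9. Median levels in cells with the factor were 53.6 RPKM for Nkx6-1, 76.3 for Pax3, 92.7 for Nkx2-1, 106.2 for Nkx2-9, 124.04 for Nkx6-2, 127.1 for Nkx2-2 and 162.4 for Pax6. Fewer cells passed for Pax6 than for Nkx6-1, but their median was higher and their highest value was 2300 RPKM.

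**Figure D2:**
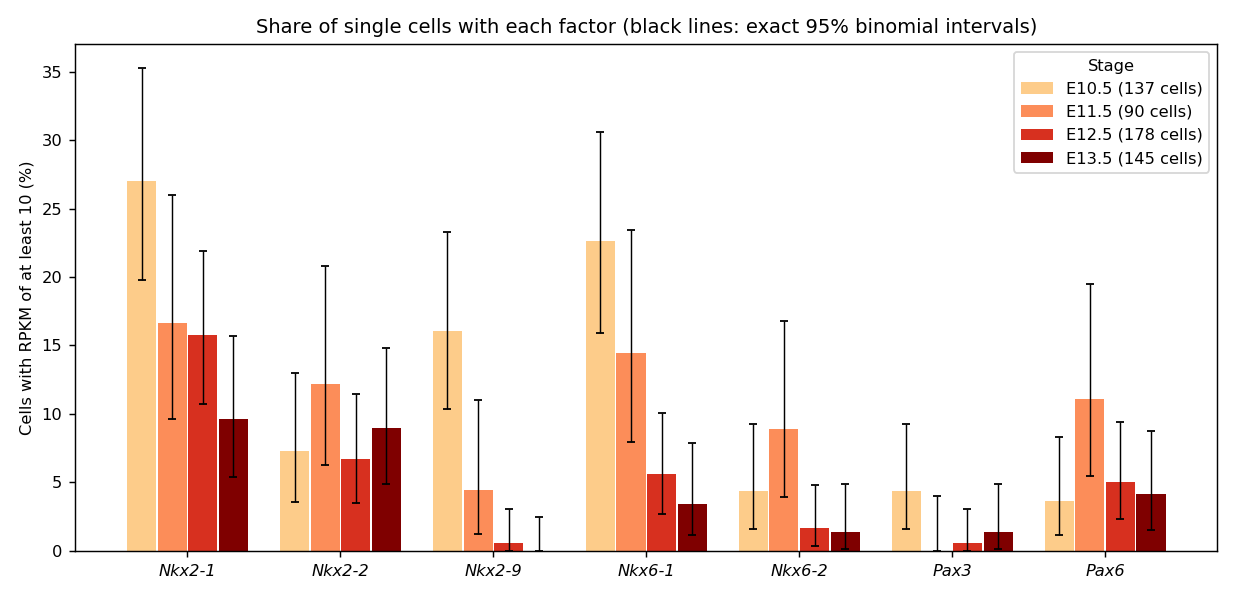
Share of single cells with each factor at an RPKM of at least 10 (y axis, percent) by embryonic stage; black lines are exact 95% binomial intervals. Shares of Nkx2-9 and Nkx6-1 step down from E10.5 (16.1% and 22.6%) to E13.5 (0% and 3.45%), whereas that of Nkx2-2 stays between 6.74% and 12.2%.

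By stage, Nkx2-1 was present in 37 cells at E10.5 (27.01% of that stage, exact 95% Clopper-Pearson interval 19.8 to 35.3), in 15 E11.5 cells (16.7%), in 28 E12.5 cells (15.7%) and in 14 E13.5 cells (9.66%, 5.38 to 15.7). Nkx6-1 went from 31 cells at E10.5 (22.6%, 15.9 to 30.6) through 13 (14.4%) and 10 (5.62%) to 5 at E13.5 (3.45%, 1.13 to 7.86). Nkx2-9 was present in 22 cells at E10.5 (16.1%, 10.3 to 23.3), 4 at E11.5 and 1 at E12.5. At E13.5 it was present in 0 cells, which allows a share of up to 2.07% when the limit is set at 3 counts and of up to 2.51% by the exact interval. For each of these 3 genes the E10.5 and E13.5 intervals do not meet. The intervals cover counting error over cells alone and take cells as independent. Variation between embryos, litters or sorts is not in them, since the labels name none of these. The reads also carry no molecular identifiers and are not independent molecules.

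The other members had no such run with stage. Nkx2-2 was present in 10, 11, 12 and 13 cells from E10.5 to E13.5 (7.30%, 12.2%, 6.74% and 8.97%), Pax6 in 5, 10, 9 and 6 (3.65%, 11.1%, 5.06% and 4.14%), and Nkx6-2 in 6, 8, 3 and 2 (4.38%, 8.89%, 1.69% and 1.38%). For Pax3 it was 6, 0, 1 and 2 cells. The intervals of these 4 genes meet between E10.5 and E13.5. Depth differed between stages, with a median of 0.742 M reads per cell at E11.5 against 1.29 M (E10.5), 1.40 M (E12.5) and 1.77 M (E13.5), while the median number of genes detected per cell was 5747 at E10.5 against 3567, 4266 and 4287 at the later stages. Detected genes were thus most numerous at the stage where Nkx2-1, Nkx2-9 and Nkx6-1 were most frequent. The make-up of the cells differed as well. EGFP was present in 75.2% of E10.5 cells and in 30%, 28.1% and 26.9% at the later stages. Lmx1a was present in 71.5% at E10.5 and then in 42.2%, 50.6% and 50.3%. The part of depth, gene number or make-up in the shares of the factors was not tested. Cells with none of the 7 factors made up 34.3% of E10.5, 50% of E11.5, 67.4% of E12.5 and 75.2% of E13.5 cells.

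Co-detection with Lmx1a and Barhl1 sorted the members into 3 patterns. Nkx2-1 cells had Barhl1 more often than other cells, Nkx2-9 and Nkx6-1 cells had Lmx1a about as often as other cells but seldom Barhl1, and Nkx2-2, Nkx6-2, Pax3 and Pax6 cells mostly had neither. Of the 299 cells with Lmx1a (54.4% of all cells), 34.1% had at least 1 member, and of the 30% of cells with Barhl1, 38.8% had. At least 1 member was present in 229 of all 550 cells, and in 51.7% of the 205 cells with neither Lmx1a nor Barhl1. Among cells with Lmx1a the share was 61.2% at E10.5 and 16.4% at E13.5. Lmx1a and Barhl1 were together in 21.6% of cells.

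**Figure D3:**
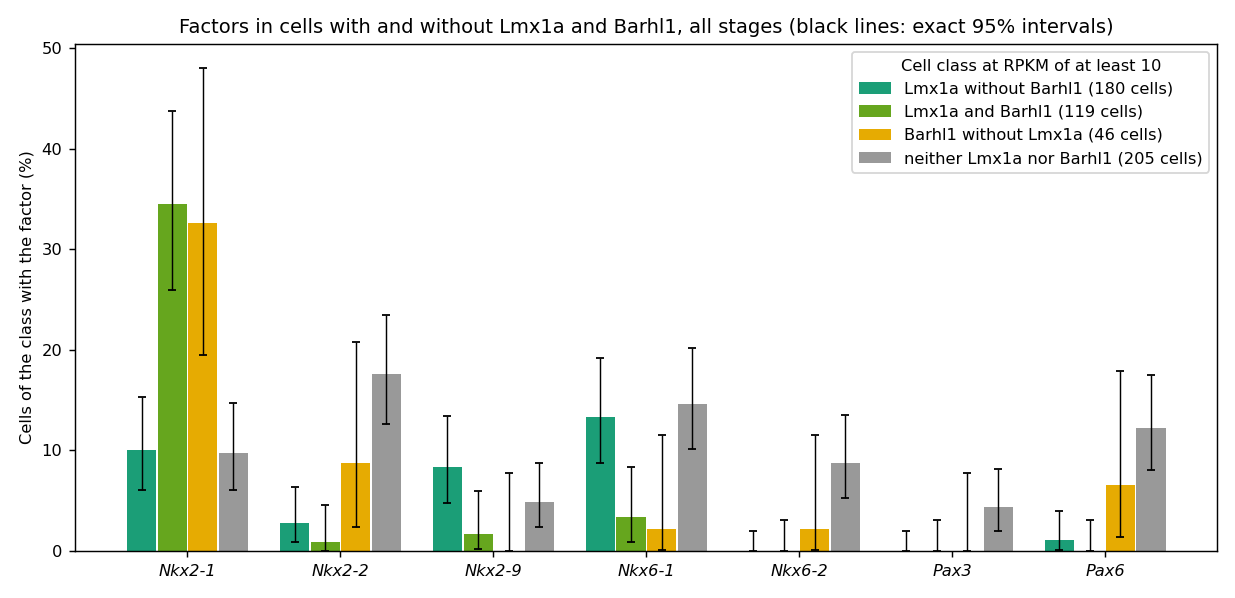
Share of cells with each factor (y axis, percent) in 4 classes of cells defined by Lmx1a and Barhl1 at an RPKM of at least 10, all stages; black lines are exact 95% binomial intervals. Nkx2-1 reaches 34.5% and 32.6% in the 2 classes with Barhl1 against 10% and 9.76% in those without, while Nkx6-2 and Pax3 have no cell in either class with Lmx1a.

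Of 94 Nkx2-1 cells, 56 had Barhl1 (59.6%, exact 95% interval 48.95 to 69.6), against 23.9% of the 456 other cells. Lmx1a was present in 59 of them (62.8%, against 52.6% of other cells) and both genes in 41. By class, Nkx2-1 was in 34.5% of cells with Lmx1a and Barhl1, 32.6% with Barhl1 alone, 10% with Lmx1a alone and 9.76% with neither. The pairing with Barhl1 was present at every stage, in 26 of 37 Nkx2-1 cells at E10.5 (70.3%, against 11% of other cells), 8 of 15 at E11.5 (53.3% against 24%), 15 of 28 at E12.5 (53.6% against 24.7%) and 7 of 14 at E13.5 (50% against 32.8%). The gap was widest at E10.5, where the intervals are 53.02 to 84.1 and 5.62 to 18.8. The intervals also lie apart at E12.5, but they meet at E11.5 (26.6 to 78.7 and 14.9 to 35.3), as do those of 23.04 to 76.96 and 24.9 to 41.6 at E13.5. Within E12.5 it was 4 of 10 (40% against 26.4%) in cells with titles in C, where the intervals meet, and 11 of 18 (61.1% against 23.7%) in those with titles in F.

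The share of Nkx2-1 cells with Lmx1a was above that of other cells at E10.5 and near it later. Lmx1a was present in 33 of 37 at E10.5 (89.2%, exact 95% interval 74.6 to 96.97, against 65%, 54.8 to 74.3). Later it was in 6 of 15 at E11.5 (40% against 42.7%), 13 of 28 at E12.5 (46.4% against 51.3%) and 7 of 14 at E13.5 (50% against 50.4%), so its share after E10.5 was lower in both sets of cells. The EGFP transcript was present in 35 of 37 Nkx2-1 cells at E10.5 (94.6%, against 68% of other cells) and in 5 of 14 at E13.5 (35.7%, against 25.95%). At E10.5 the pools held Nkx2-1 at overlapping levels in both GFP classes, while nearly all of the single cells with Nkx2-1 had the reporter transcript. How single cells were gated is not in the labels, so the shares of the pools and of the single cells cannot be set on 1 scale.

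Nkx2-9 cells had Lmx1a in 17 of 27 (62.96%, exact 95% interval 42.4 to 80.6), EGFP in 18 and Barhl1 in 2. Nkx6-1 cells had Lmx1a in 28 of 59 (47.5%, 34.3 to 60.9), EGFP in 25 and Barhl1 in 5 (8.47%, against 32.6% of other cells). Over all cells without the factor, Lmx1a was in 53.9% for Nkx2-9 and in 55.2% for Nkx6-1, so neither gene set its cells apart by Lmx1a beyond counting error. At E10.5, Lmx1a was in 15 of 22 Nkx2-9 cells (68.2%, against 72.2% of other cells) and in 19 of 31 Nkx6-1 cells (61.3%, against 74.5%).

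Nkx2-2 cells had Lmx1a in 6 of 46 (13.04%, against 58.1% of other cells), Barhl1 in 5 and neither in 36. Pax6 cells had Lmx1a in 2 of 30, Barhl1 in 3 and neither in 25. Nkx6-2 cells had Lmx1a and EGFP in 0 of 19 and Barhl1 in 1. Pax3 cells had Lmx1a and Barhl1 in 0 of 9 and EGFP in 2. The count of 0 for Nkx6-2 or Pax3 among 299 Lmx1a cells allows a share of up to 1.003% at 3 counts and of up to 1.23% by the exact interval. The cells with both were 3 of 10 Nkx2-2 cells at E10.5 (30%, exact 95% interval 6.67 to 65.2), 2 of 12 at E12.5 and 1 of 13 at E13.5, and 2 of 6 Pax6 cells at E13.5 (33.3%, 4.33 to 77.7). Lmx1a was thus in few cells of these 4 genes over all stages, with wide intervals within a stage.

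Co-detection of the factors with each other was mostly rare. Of 550 cells, 182 had 1 member, 42 had 2, 3 had 3, 1 had 4 and 1 had 5. All of the cells with 3 or more were from E10.5 or E11.5, and doublets were not called, so that such cells could hold more than 1 cell.

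**Figure D4:**
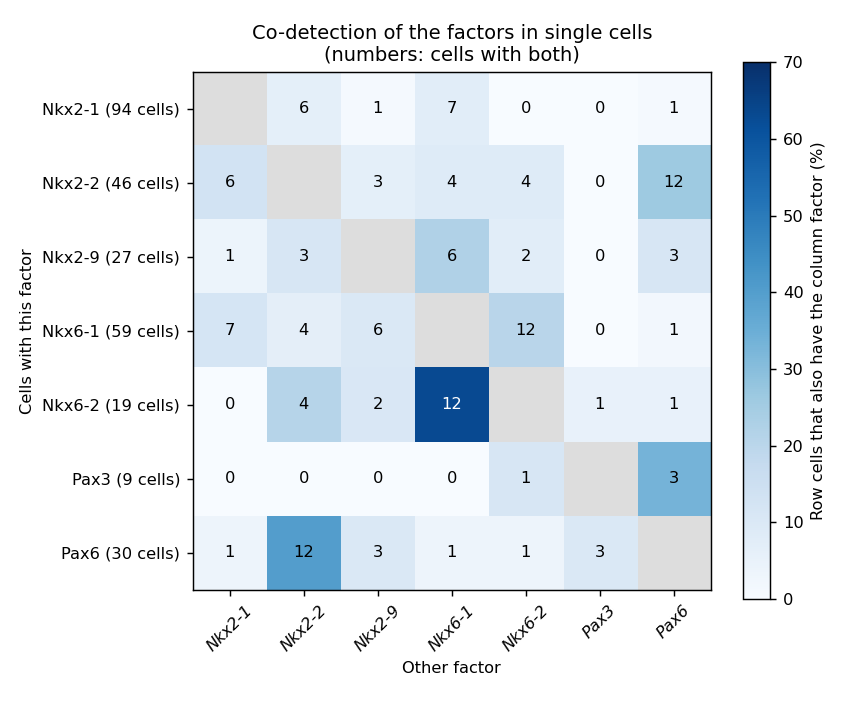
Cells with each pair of factors at an RPKM of at least 10; rows are the cells with the first factor, columns the other factor, numbers are cells with both and shade is the percent of the row's cells. The darkest squares are Nkx6-2 with Nkx6-1 (12 of 19) and Pax6 with Nkx2-2 (12 of 30).

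Nkx6-1 was present in 12 of 19 Nkx6-2 cells (63.2%, exact 95% interval 38.4 to 83.7), against 47 of 531 other cells (8.85%). In the other direction 12 of 59 Nkx6-1 cells had Nkx6-2 (20.3%), so most Nkx6-2 cells had its paralog and most Nkx6-1 cells did not. Nkx2-2 was present in 12 of 30 Pax6 cells (40%, 22.7 to 59.4), against 34 of 520 other cells (6.54%), and 26.1% of Nkx2-2 cells had Pax6. Pax6 and Nkx2-2 are known to exclude each other in ventral spinal cord progenitors. Pax6 was also in 3 of 9 Pax3 cells.

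Nkx2-1 stood mostly apart from the other members. It shared 7 cells with Nkx6-1, 6 with Nkx2-2, 1 with Pax6 and 0 with Nkx6-2 and Pax3. With Nkx2-9, its neighbour on chromosome 12, Nkx2-1 shared 1 cell, which was 1.06% of Nkx2-1 cells (0.0269 to 5.79). Of the 456 cells without Nkx2-1, 26 had Nkx2-9 (5.70%). Nkx6-1 was in 6 of 27 Nkx2-9 cells (22.2%, 8.62 to 42.3, against 10.1% of other cells). That comparison is not matched by stage. Of the 27 Nkx2-9 cells, 22 were from E10.5, where Nkx6-1 was in 22.6% of all cells.

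The companion genes below come from the fixed lists and were picked after their values were seen. Most were picked for a large gap in share, and some with a small gap are given beside them. They describe the cells and test nothing. Nkx2-1 cells had the interneuron progenitor factor Dbx1 in 56.4% (against 10.3% of other cells), the ligand gene Wnt8b in 46.8% (9.43%), Barhl2 in 44.7% (57 of 456) and Nkx2-4 in 24.5% (1.75%). The dopamine lineage factor Nr4a2 was in 13.8% (36.4%). At E10.5 alone the figures were 59.5% for Dbx1 (11%), 75.7% for Wnt8b (17%) and 62.2% for Barhl2 (14%). The early neuron gene Tubb3 was in 83.8% of E10.5 Nkx2-1 cells (34% of other E10.5 cells), while the later neuron gene Mapt was in 8.11% (4%). Dbx1, Wnt8b, Barhl2 and Tubb3 were thus each frequent in E10.5 cells with Nkx2-1.

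**Figure D5:**
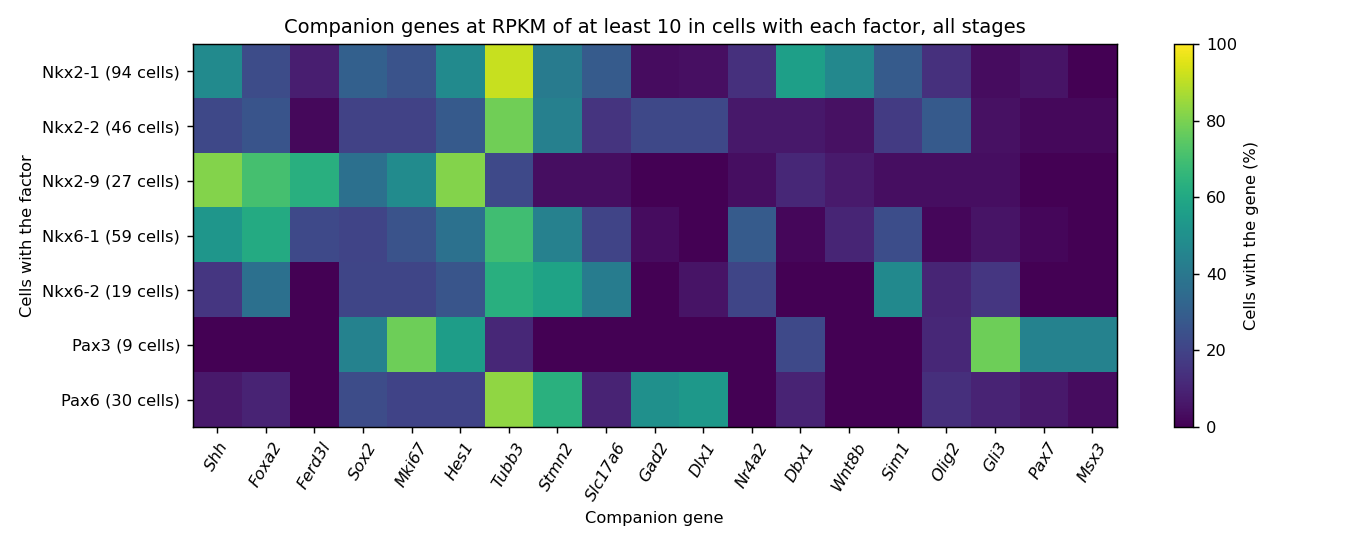
Share of the cells with each factor (rows, all stages) that also had a companion gene (columns) at an RPKM of at least 10; the colour scale runs from 0 to 100%. Shh and Foxa2 are frequent with Nkx2-9 (81.5% and 70.4%), Dbx1 with Nkx2-1 (56.4%), Dlx1 and Gad2 with Pax6 (53.3% and 50%) and Gli3 and Mki67 with Pax3 (77.8% each).

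Nkx2-9 cells often had progenitor and midline genes. At E10.5, where 22 of the 27 were found, Shh was in 86.4% (80% of other E10.5 cells), the guidance gene Ntn1 in 90.9% (74.8%), the floor plate factor Ferd3l in 59.1% (30.4%), the protease gene Corin in 54.5% (22.6%) and Foxb1 in 50% (16.5%). Tubb3 was in 13.6% (53.9%). The cell cycle gene Mki67 differed little, at 50% and 50.4%. Over all stages, 26 of 27 had at least 2 of the 8 progenitor markers, against 48.9% of other cells. Most other cells were from later stages, so that comparison is not matched by stage.

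Nkx6-1 cells had Foxa2, a floor plate factor that also marks midbrain basal plate neurons, in 61.02% (35.8% of other cells), Shh in 52.5% (33.2%), the basal plate factor Sim1 in 23.7% (8.76%) and Dbx1 in 1.69% (20.2%). At E10.5 alone Foxa2 was in 64.5% against 61.3%, so the gap over all stages did not appear within E10.5, whereas that of Dbx1 did (3.23% against 30.2%). The comparisons of Shh and Sim1 are not matched by stage. Of the 59 Nkx6-1 cells, 31 were from E10.5, where Shh was frequent in cells with and without Nkx2-9. Nkx6-2 cells had Sim1 in 47.4% (9.04%), the interneuron factors Lhx5 in 42.1% (16.9%) and Lhx1 in 36.8% (12.99%), Pax5 in 31.6% (6.78%) and Shh in 15.8% (35.97%). Of the genes named here, Sim1 had a raised share in both sets of Nkx6 cells, which have 12 cells in common and are not separate groups.

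Nkx2-2 cells had the radial glia and progenitor gene Fabp7 in 63.04% (29.4% of other cells), Lhx5 in 39.1% (15.9%), the progenitor factor Olig2 in 28.3% (3.57%) and Dlx1 in 21.7% (4.37%). The factor Helt, needed for midbrain GABAergic neurons, was in 6 of 46 Nkx2-2 cells and in 0 of the other 504. Lmx1b, which works with Lmx1a in the dopamine lineage, was in 4.35% (40.3%).

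Pax6 cells had Dlx1 in 53.3% (3.08% of other cells), Dlx2 in 50% (2.31%), Lhx1 in 46.7% (11.9%) and Isl1 in 30% (1.73%). The GABA synthesis gene Gad2 was in 50% (7.12%), and 15 of 30 had at least 2 of 3 GABAergic markers. Nr4a2 was in 0 of 30, against 34.4% of other cells. None of the 5 Pax6 cells at E10.5 had Dlx1, Dlx2 or Gad2, so all of the Pax6 cells with these genes were from later stages.

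Pax3 cells were few and all of them had the mitosis gene Top2a and Fabp7 (9 of 9), with Mki67 in 7. They had the hedgehog effectors Gli3 in 7 of 9 (2.77% of other cells) and Gli2 in 6 (2.77%), and the dorsal genes Pax7 in 4 (1.66%) and Msx3 in 4 (0.555%). Shh, Foxa2 and the neuron gene Stmn2 were in 0 of 9. At least 2 neural crest markers were found in 0 of 9 (1 of 541 other cells), and at least 2 mesenchyme markers in 0 of 9 (3 of 541). Such cells were rare throughout, so these counts of 0 do not set Pax3 cells apart. At least 2 red blood cell markers were found in 2 of 9 (1.11% of other cells). Averaged over all E10.5 single cells Pax3 was 4.13 RPKM, above the highest E10.5 pool at 0.601.

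The genes most alike to each member were ranked over all cells by the Jaccard index, which is the cells with both genes over the cells with either. For Nkx2-1 they were Dbx1 (0.376), Wnt8b (0.321) and Barhl2 (0.278), and for Pax6 they were Dlx5 (0.390), Dlx2 (0.357) and Dlx1 (0.348). Nkx2-2 was closest to Olig2 (0.203), Pax6 (0.188) and Heg1 (0.171), and Nkx6-2 to Cartpt (0.269), Pdlim3 (0.194) and Fgf15 (0.185). Nkx2-9 was closest to Calca (0.224), Gm7694 (0.224) and Lrtm1 (0.221), and Nkx6-1 to Parvb (0.201), Nxn (0.194) and Myo10 (0.189). Even the closest gene of each member shared fewer cells with it than the 2 genes had apart. Pax3 had fewer than 10 cells and was not ranked.

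Over the 24 pools, likeness was measured by Pearson's r of log2(RPKM + 1), where the pools share 4 groups and r mainly follows the group means. Nkx2-1 was most like Emx2 (0.89), Tcf7l2 (0.889) and Fezf2 (0.88), and Nkx2-2 was most like Dlx5 (0.869), Dlx2 (0.864) and Adam15 (0.848). Both Nkx6-2 and Pax6 had Olig2 first (0.921 and 0.915). Next for Nkx6-2 came 2 lines of the table for 2610017I09Rik (0.915 and 0.906), and for Pax6 came 2610017I09Rik (0.873) and Nkx6-2 (0.856). Nkx2-9 was most like Rab13 (0.898), Rhog (0.896) and Grb10 (0.89), and Nkx6-1 was most like Gm16551 (0.915), Ackr3 (0.904) and Gstp1 (0.9). No gene stood in both rankings of the same member.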

How the data were processed

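Single cells (137 at E10.5, 90 at E11.5, 178 for E12.5 and 145 for E13.5) and 24 pools of 100 cells were sequenced after Smart-seq2 and Nextera XT preparation, per the labels. The authors aligned reads with STAR 2.3.0 to mm10, per the submitters' processing notes. The read counter was not given in the sources used here, nor were the annotation and any filters. The authors deposited RPKM for pools and log2 values for cells, and the lowest value in the file shows these to be log2(RPKM + 0.001). They were turned back into RPKM. Depth was estimated from the step between low values, with gene lengths from GENCODE vM21, and is approximate, since steps of a smaller size also occur.

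Groups of pools follow stage and GFP class in the labels. The 15871 genes that reached an RPKM of 1 in 6 or more pools were fitted on log2(RPKM + 1) with limma 3.58.1 in R 4.3.3, with 4 group means, a variance trend and Benjamini-Hochberg adjustment. Fold changes on this scale understate the change of low genes. On simulated data for the E13.5 GFP contrast (15431 genes), 53% of 100 genes changed 2-fold and 81% of 100 changed 4-fold were recovered, with 9 false among 143 calls. Cells were described by counts at an RPKM of at least 10 with exact 95% Clopper-Pearson intervals and no test. No cell was removed (at least 1405 genes in each) and doublets were not called. Alternatives covered the pseudocount, the filter, the groups in the fit, the threshold, each pool left out and, added after seeing the data, a rescaling.

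Genes named with values are the 7 members, Lmx1a, Barhl1, EGFP, the called gene of largest difference per list and contrast, and the 3 most alike genes per member. The values of some genes that this rule names are not reported here. The companion genes and the other Nkx2-4 values were chosen after seeing the values. The members and lists were chosen with earlier results of these data known. Promoters are from RefSeq.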

Additional observations from a re-analysis of the deposited data

Results flagged for a closer look

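In 5 of 36 groups of 6 pools checked, which took in Lmx1a and Barhl1 besides the 7 members, an extreme pool stood far from the other 5; chance gives about 1 such group in 20. That rate does not apply to the 2 Pax3 groups among them, where 5 pools were at 0 and any value above 0 stands apart. Nkx2-9 was 7.64 RPKM in 1 E13.5 GFP negative pool, where the next value was 2.39. Nkx6-2 was 18.4 in 1 E10.5 GFP negative pool, where the next was 31.7. Pax6 was 11.6 in 1 E10.5 GFP positive pool, where the next was 3.36. Pax3 was 0.0899 in 1 E10.5 GFP negative pool and 4.28 in 1 E13.5 GFP negative pool, with the other 5 pools of each group at 0.

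The GFP contrast differed between stages for 2 members by the limma term for that difference, Nkx2-1 (-3.45; adjusted p = 4.86e-06) and Nkx2-9 (2.17; adjusted p = 0.0325).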

How the results depend on the processing

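No log2 difference of a called member changed sign under any alternative. The number of members called for the difference between GFP contrasts, 2, was 1 with a pseudocount of 0.1, 1 without the filter on low values and 3 with a pseudocount of 10, where Nkx6-1 was added (0.99; adjusted p = 0.00148). With each pool left out in turn it ranged from 1 to 2, and Nkx2-9 was the member lost. Over the same fits the members called ranged from 4 to 5 at E10.5, from 5 to 6 at E13.5, from 3 to 3 between stages in GFP positive pools and from 4 to 5 in GFP negative pools. Of 951 log2 differences of single genes under alternatives, 925 kept their side of the threshold, 15 lost their call and 11 gained one. Cells with Lmx1a and a member numbered 50 at an RPKM of at least 50, which is 49.02% of their number at 10. Cells with Barhl1 and a member numbered 64 at 10 and 98 at 1. No paired analysis was possible because the labels give the pools no shared replicate numbers. With a pseudocount of 10, or only the groups of the contrast in the fit, Nkx2-9 at E10.5 passed (adjusted p = 0.00158 with the pseudocount), as did the stage difference of Pax6 in GFP negative pools (adjusted p = 0.0107). Depth limits counts of 0 in cells as given beside them.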
